A study of Homo sapiens with 18 samples.

Results

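The response of N108 knock-in cells to tumour necrosis factor (TNF) was read from 6 of the 18 RNA libraries of the series. Members were chosen by their labels: 3 libraries of N108 cells given human TNFα (0.1 µg/mL, 40 min) were set against 3 libraries of untreated N108 cells. All cells were HCT116, an established human colorectal carcinoma line of epithelial origin. Every group carried a knock-in of IκBα, the untreated groups included: the wild-type protein (WT), a mutant named N108, or M3, in which neighbouring histidine and glutamate residues were changed to alanine. What residue replaces N108 is not given in the labels. WT and M3 libraries, also 3 untreated and 3 with TNF each, were used here to estimate spread and to test whether the N108 response differed. The labels do not say how many lines or clones stand for each genotype, so a mutation and the line that carries it cannot be told apart. Separate cultures are not stated for the replicates, so p-values reflect only how far these libraries spread, and that spread may be technical.

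TNF binds its receptor on the cell surface and activates the IκB kinase complex, which marks IκBα for destruction. NF-κB dimers that IκBα had held in the cytoplasm then enter the nucleus and switch on early genes. Among these are NFKBIA, which encodes IκBα itself, and TNFAIP3, which encodes A20, and the products of both dampen the signal. The same receptor complex also activates MAP kinases, which act on AP-1 factors such as JUN, and colon epithelial cells are known to answer TNF by making chemokines that attract neutrophils.

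The 6 libraries held between 52444779 and 76296511 counts, and 19038 of 61552 genes passed a filter on low counts. Replicates differed by more than sampling noise in every pair (chi-square per degree of freedom 8.13 to 23.6). Epithelial markers were present at 7 of 7 with at least 1 CPM (counts scaled by library size), and 0 of 5 leukocyte and 0 of 3 erythroid markers reached that level. Of 3 endothelial markers 1 did, VWF, at 1.43 CPM untreated and 1.47 CPM with TNF on average. Of 4 colon markers only CDX2 did, and the defining genes LGR5, VIL1 and CDX1 were below 1 CPM, although the line is labelled as colorectal. Of 5 fibroblast markers 2 were at 1 CPM or more, and DCN, PDGFRB and COL1A2 were below it. The sum of all 5 was 29 to 31.8 CPM untreated and 32.8 to 39.1 CPM with TNF. Most of it was COL1A1, at 28.0 CPM untreated and 33.2 CPM with TNF on average, while COL3A1 stood at 2.36 and 2.40 CPM. The part of these markers in the results was not tested.

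The N108 libraries differed in how their counts followed the GC content of transcripts, untreated replicate 2 and TNF replicates 2 and 3 the most. Across 13680 genes, the deviation of a library from the mean of its group followed GC content with Spearman values of 0.65 in N108 TNF replicate 2 and -0.72 in N108 TNF replicate 3, against 0.02 in N108 TNF replicate 1 and -0.58, 0.19 and 0.38 in untreated replicates 2, 1 and 3. The genes share these libraries and are not independent, so these values are descriptions. The TNF fold change itself went from a median of -0.12 on the log2 scale in the decile of lowest GC content (37.1%) to 0.12 in the highest (64.2%), and the plot of GC trends shows the 6 libraries side by side. Results below are therefore given with all libraries and, where that changes them, without the libraries named or with each library's GC trend removed.

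**Figure D1:**
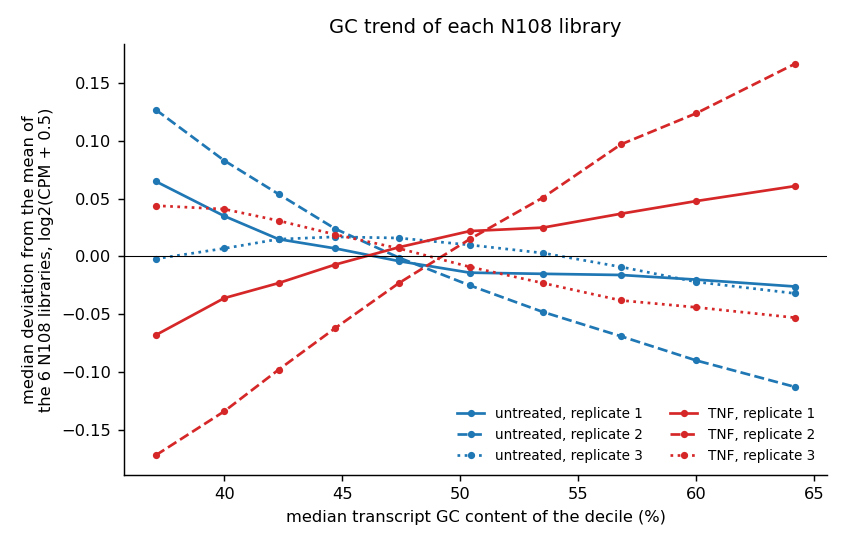
Median deviation of each N108 library from the mean of all 6, on the log2(CPM + 0.5) scale (y), against the median GC content of 10 deciles of genes (x, %); blue lines are untreated and red lines TNF libraries. TNF replicate 2 climbs from -0.172 to 0.167 whereas TNF replicate 3 slopes the other way, from 0.044 to -0.053, and untreated replicate 2 more steeply, from 0.127 to -0.113.

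TNF raised 209 genes in N108 cells (1.1% of genes tested) and lowered 19 (0.0998%), by edgeR's quasi-likelihood test at an adjusted p under 0.05. Most of the rises were small: 123 of the 209 were below 1.5-fold, and the median log2 fold change was 0.46. A core of 50 genes rose at least 2-fold, 22 at least 4-fold, 16 at least 8-fold and 9 at least 32-fold. Falls were smaller, with a median of -0.27, and KRT222 alone exceeded 1.5-fold. The called genes that rose made up 1.12% to 1.17% of the counts of untreated libraries and 1.65% to 1.87% of those with TNF. In 208 of the 209 all TNF libraries lay above all untreated ones, TUBB2A being the exception, while 7.98% of all genes tested showed that order. TUBB2A, a tubulin gene, did not pass without untreated replicates 1 and 2 and TNF replicates 1 and 2 (adjusted p = 0.21, 0.23, 0.14 and 0.42) or with the GC trends removed (0.17 on the log2 scale, adjusted p = 0.12). In bulk RNA, more cells responding and more RNA per responding cell cannot be told apart.

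The count of calls moved with the libraries included, most without N108 TNF replicate 3. It was 906 higher (4.67%) and 427 lower (2.2%) without N108 TNF replicate 3, and 143 higher (0.738%) and 8 lower (0.0413%) without N108 TNF replicate 2. It fell to 140 higher and 3 lower when untreated replicate 2 was left out, and to 10 lower for untreated replicate 1. With the GC trends removed it was 193 higher (1.01%) and 24 lower (0.126%), and 192 higher and 26 lower with TNF replicate 3 left out as well. Calls that appeared without replicate 3 were small and followed GC content: 698 newly higher genes had a median log2 fold change of 0.22 and a median GC content of 62.1%, 409 newly lower ones -0.24 and 38.7%, and 17 and 6 of these were called without replicate 3 once the GC trends were removed (5 and 2 with replicate 3 kept and the trends removed). The core of 50 genes raised at least 2-fold was called in full without replicate 3, with the GC trends removed and with both changes, and 49 were called without replicate 2.

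**Figure D2:**
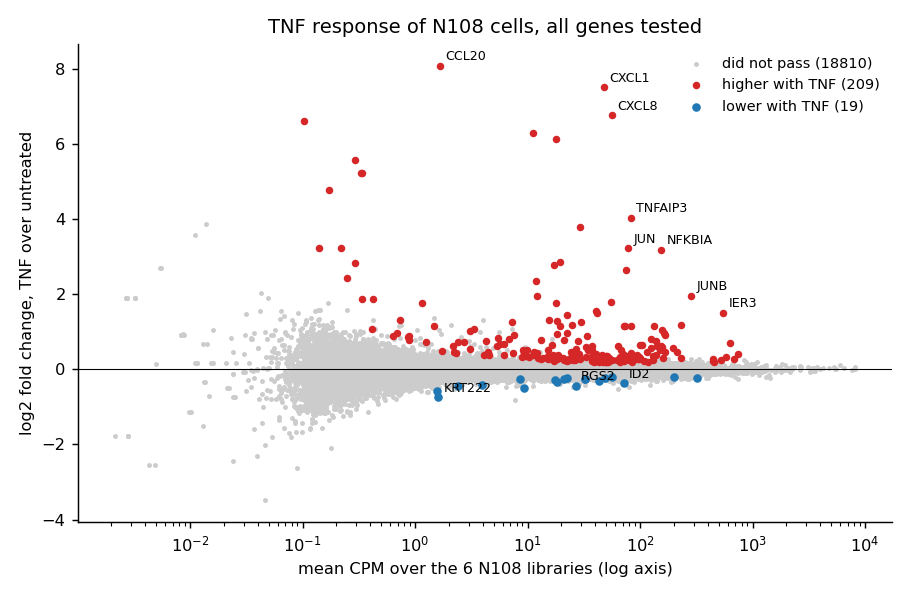
Log2 fold change with TNF (y) against mean CPM over the 6 N108 libraries (x, log axis) for the 19038 genes tested; red points are the 209 called higher, blue points the 19 called lower and grey points those that did not pass. Rises reach 8.09 for CCL20, and no gene called lower goes below -0.73.

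Chemokine genes gave the highest folds. Of 7 chemokine genes tested, 5 rose (71.4%, against 1.1% of all genes). The median log2 fold change over the list was 6.28, against 0.003 over all genes. The filter keeps a gene that is high in 1 group only, so CCL20, near 0 untreated, could be tested because of its rise. Of 14 listed genes 7 were tested, so this share and median lean towards genes that rose. CXCL8, a neutrophil attractant, stood at 0.973, 1.04 and 1.05 CPM in the untreated replicates and at 107, 119 and 111 CPM with TNF. Its groups lay about 100 CPM apart and its log2 fold change was 6.78 (SE 0.095, adjusted p = 2.2e-27). CXCL1, a ligand of the same receptor family, stood at 0.571, 0.456 and 0.540 CPM untreated and at 89.8, 110 and 85.1 CPM with TNF. All its TNF libraries were higher, replicate 2 the highest, with a log2 fold change of 7.52 (SE 0.12, adjusted p = 5.7e-23).

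CXCL2 and CXCL3, close relatives of CXCL1 whose short reads could in part be shared, rose from 0.279 ± 0.052 to 22.3 ± 4.6 CPM and from 0.511 ± 0.11 to 35.4 ± 6.8 CPM (mean ± SD, n = 3 each). Their log2 fold changes were 6.28 and 6.13. CCL20, which attracts cells bearing the receptor CCR6, had 2 counts over the 3 untreated libraries together, against 188, 217 and 167 counts with TNF. Scaled for depth, that is a ratio of 326 (95% counting interval 89.8 to 2700, which covers counting error only). CXCL16 (0.16, adjusted p = 0.091) and CCL28, at about 0.1 CPM in every library, did not pass. Another 7 listed chemokine genes did not reach the filter: CXCL5 and CXCL6 had 0 counts in all 6 libraries, and CCL2, the most abundant of them, had 17 in total.

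The 4 CXC chemokine genes that rose lie in 1 cluster of 358.8 kb on chromosome 4, from 73740506 to 74099293 (GRCh38). CXCL8 (73740506 to 73743716) and CXCL1 (73869393 to 73871242) are on the plus strand, and CXCL3 (74036589 to 74038807) and CXCL2 (74097035 to 74099293) on the minus strand. Between them lie CXCL6, PF4V1, PF4, PPBP and CXCL5, each with 0 counts in all 6 libraries. The cluster thus held 4 genes that went from a level near 1 CPM or below to 22.3 CPM or more, interleaved with 5 that were not detected. Beyond it lie genes of epidermal growth factor family ligands: AREG rose from 124 ± 4.6 to 177 ± 3.2 CPM (0.51, adjusted p = 1.0e-08), and EREG stood at 489, 493 and 421 CPM untreated and 539, 540 and 606 CPM with TNF. EREG did not pass (0.26, SE 0.089, adjusted p = 0.20) but did with the GC trends removed (0.41, adjusted p = 3.0e-07). EPGN and BTC, also ligand genes there, had lower values with TNF and did not pass (-0.23 and -0.15, adjusted p = 0.51 and 0.39). The interferon-type chemokine genes CXCL10 and CXCL11, further along the chromosome, had 7 and 6 counts over all 6 libraries.

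**Figure D3:**
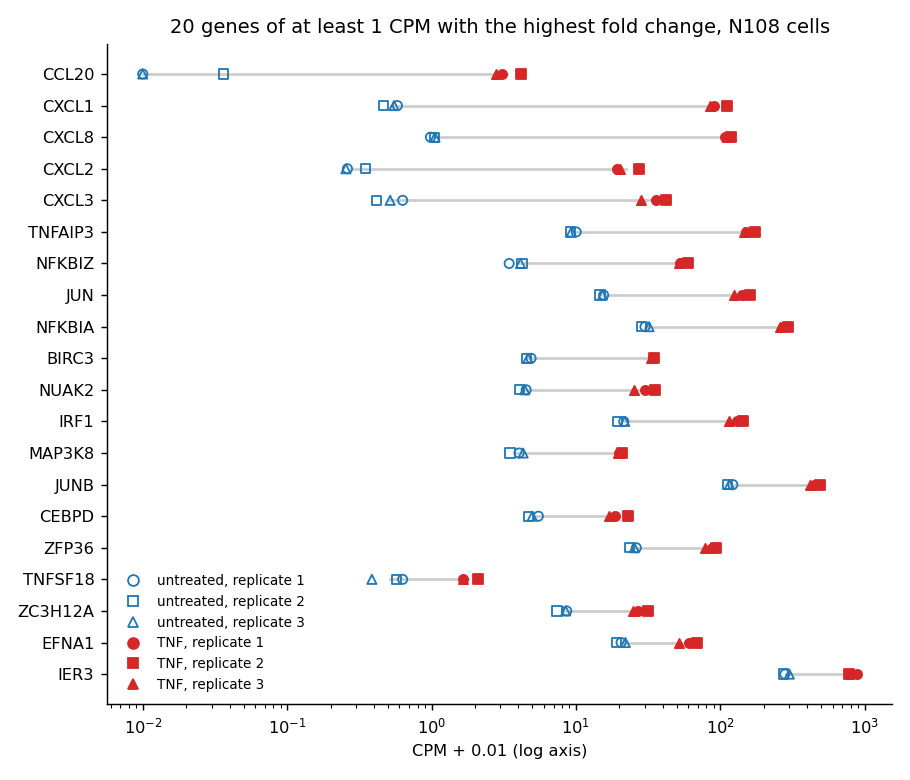
CPM + 0.01 (x, log axis) of the 20 genes with the highest fold change among those called higher with at least 1 CPM; blue open symbols are untreated and red filled symbols TNF libraries, shaped by replicate, with a grey line between group means. Only genes whose groups did not overlap were eligible, so the separation of untreated and TNF libraries was set by the choice. The 20 run from CCL20, at 0 to 0.0261 CPM untreated, to IER3. IER3 stood at 275 to 301 CPM untreated and 780 to 882 CPM with TNF.

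NFKBIA, the edited gene, was present in every library. It stood at 30.1, 28.5 and 32.1 CPM untreated and at 274, 296 and 258 CPM with TNF. The groups were far apart and the log2 fold change was 3.19 (SE 0.055, adjusted p = 1.2e-25). Its fold was near that of WT, where it rose from 91.6 ± 4.6 to 758 ± 20 CPM (3.05), and the interaction did not pass (0.14, SE 0.072, adjusted p = 0.26). In M3 it rose from 77.9 ± 1.2 to 966 ± 21 CPM. Counts per gene do not show the altered residue, so they do not check the label beyond the presence of the transcript. Within 150 kb of NFKBIA, PSMA6 (-0.03, adjusted p = 0.88) and RALGAPA1 (0.05, adjusted p = 0.80) did not pass. RPLP0P3, a processed pseudogene of a ribosomal protein gene 12.4 kb from NFKBIA (chromosome 14, 35388121 to 35389069), rose from 0.898 ± 0.17 to 2.02 ± 0.052 CPM (1.17, adjusted p = 0.00045). Its values in WT and M3 were 1.20 and 2.84 and did not pass. Its reads can be shared with the parent gene RPLP0, so this value is uncertain. RPLP0 did not pass for TNF in N108, and the list of ribosomal protein genes that holds it ranged from -0.08 to 0.14. NFKBIA is on the minus strand, so the pseudogene lies downstream of it. The part of either gene in its rise was not tested.

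The promoters of NFKBIA, TNFAIP3, CXCL8, CXCL1 and JUN are shown because they stand for the feedback inhibitors, chemokines and AP-1 factors among the largest rises. Each window runs from 250 bases before to 50 after the annotated start, written on the gene's own strand, from RefSeq on GRCh38.p14, and capitals mark matches to the κB consensus, the NF-κB motif, or to the shorter GGAANTTCC, on either strand.
NFKBIA, chr14:35404700-35404999, minus strand: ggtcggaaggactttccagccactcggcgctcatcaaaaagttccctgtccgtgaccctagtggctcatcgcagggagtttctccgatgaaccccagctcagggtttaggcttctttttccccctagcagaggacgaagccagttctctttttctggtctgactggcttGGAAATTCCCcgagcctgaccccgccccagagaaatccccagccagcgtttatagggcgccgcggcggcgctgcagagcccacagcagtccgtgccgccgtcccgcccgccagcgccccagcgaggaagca
TNFAIP3, chr6:137867009-137867308, plus strand: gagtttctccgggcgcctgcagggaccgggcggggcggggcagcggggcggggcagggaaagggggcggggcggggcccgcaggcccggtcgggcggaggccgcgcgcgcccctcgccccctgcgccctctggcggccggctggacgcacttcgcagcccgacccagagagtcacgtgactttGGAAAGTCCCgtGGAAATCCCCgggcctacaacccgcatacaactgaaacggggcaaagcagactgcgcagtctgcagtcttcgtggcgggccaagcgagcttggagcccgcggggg
CXCL8, chr4:73740319-73740618, plus strand: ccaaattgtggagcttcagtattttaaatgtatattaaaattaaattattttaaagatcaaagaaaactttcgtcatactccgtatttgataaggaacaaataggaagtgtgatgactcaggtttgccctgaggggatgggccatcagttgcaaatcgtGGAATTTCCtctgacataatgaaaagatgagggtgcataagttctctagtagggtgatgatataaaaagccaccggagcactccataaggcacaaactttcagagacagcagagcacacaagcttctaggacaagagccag
CXCL1, chr4:73869143-73869442, plus strand: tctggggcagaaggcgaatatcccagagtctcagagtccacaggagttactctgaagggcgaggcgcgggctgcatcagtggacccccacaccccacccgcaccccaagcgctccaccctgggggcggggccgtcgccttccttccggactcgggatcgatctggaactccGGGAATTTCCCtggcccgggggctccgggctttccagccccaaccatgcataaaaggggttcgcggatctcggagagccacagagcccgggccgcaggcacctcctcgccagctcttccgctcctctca
JUN, chr1:58783998-58784297, minus strand: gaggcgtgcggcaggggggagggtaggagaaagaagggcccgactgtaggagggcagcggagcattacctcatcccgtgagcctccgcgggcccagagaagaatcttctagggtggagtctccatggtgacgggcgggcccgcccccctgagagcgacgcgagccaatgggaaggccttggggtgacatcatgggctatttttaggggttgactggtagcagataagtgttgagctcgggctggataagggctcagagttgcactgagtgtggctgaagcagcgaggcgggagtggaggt
NFKBIA has 1 such stretch 72 to 81 bases before its start. TNFAIP3 has 2, at 58 to 67 and 46 to 55 bases before it, and CXCL1 has overlapping matches within 69 to 79 bases before it. CXCL8 matches only the shorter motif, 83 to 91 bases before its start. The JUN window holds neither pattern, which says only that these letters are not in this window.

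Across genes, the κB consensus occurred in 11.3% of all 35116 promoter windows of the table and in 13.5% of the windows of genes tested. It occurred in 28.4% of the 211 windows of genes called higher, which cover 157 of the 209 genes, and in 51.0% of the 49 windows of those raised at least 2-fold. GGAANTTCC, which in part overlaps it, went from 1.0% of all windows to 7.1% and 22.4% in the same order. TATAAA, the core of the TATA box, was in 11.5% of all windows, 6.7% of those of genes tested, 13.3% of those called higher and 28.6% of those raised at least 2-fold. The AP-1 motif TGANTCA was in 7.7%, 5.6%, 8.1% and 6.1% of the same sets, and TGACGTCA, the motif of CREB and ATF factors, in 1.8%, 2.6%, 6.2% and 6.1%. Both strands were searched, a gene can have several windows, and the shares are descriptions with no test.

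Genes of the IκB family and the NF-κB subunits rose for 8 of 11 members tested (72.7%, against 1.1% of all genes). The median was 0.56, against 0.003 over all genes. Without 1 of the N108 libraries the number higher was 6 to 9. The largest rises were those of IκB family genes, though NFKBIB, also of that family, rose less than the subunit gene NFKB2. NFKBIZ, an atypical nuclear IκB, stood at 3.44, 4.22 and 4.12 CPM untreated and at 52.2, 59.7 and 51.6 CPM with TNF. It was higher in every TNF library, with a log2 fold change of 3.79 (SE 0.074, adjusted p = 2.0e-24). BCL3, a nuclear IκB that binds p50 and p52, rose from 17.5 ± 1.4 to 42.0 ± 7.6 CPM (1.27), and NFKBIE, which encodes the cytoplasmic inhibitor IκBε, from 15.2 ± 0.50 to 29.6 ± 1.3 CPM (0.96). NFKBID, another nuclear IκB gene, rose by 0.62.

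Among the subunits, NFKB2, the p100 precursor of p52, rose from 101 ± 2.9 to 150 ± 11 CPM (0.56, adjusted p = 2.0e-08). RELB, its usual partner, passed narrowly (0.36, adjusted p = 0.043), as did the inhibitor gene NFKBIB (0.25, adjusted p = 0.031). Both calls ended with the GC trends removed (0.22 and 0.16, adjusted p = 0.090 and 0.068) and in several fits that left out 1 library. Without untreated replicates 1 and 2 and TNF replicates 1 and 2 in turn, RELB had adjusted p-values of 0.11, 0.37, 0.12 and 0.40, and NFKBIB 0.051, 0.35, 0.12 and 0.21, with 0.061 for NFKBIB without untreated replicate 3. RELA, the p65 subunit, stood at 94.5 ± 2.3 CPM untreated and 106 ± 5.0 CPM with TNF and did not pass (0.16, SE 0.047, adjusted p = 0.097), nor did NFKB1 (0.06, adjusted p = 0.51) or REL (0.27, adjusted p = 0.13). REL passed with the GC trends removed (0.37, adjusted p = 0.0019).

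Of 39 genes for the TNF receptor complex, its kinases and its ubiquitin enzymes, 5 rose (12.8%, median 0.05), against 1.1% of all genes. TNFAIP3 stood at 10.0, 9.21 and 9.29 CPM untreated and at 151, 174 and 146 CPM with TNF. All TNF libraries were more than 100 CPM above all untreated ones (4.04, SE 0.066, adjusted p = 3.5e-26). BIRC3, which encodes the ubiquitin ligase cIAP2, stood at 4.88, 4.53 and 4.65 CPM untreated and at 34.4, 34.8 and 33.0 CPM with TNF (2.86, adjusted p = 5.5e-20). MAP3K8, the kinase TPL2 that feeds into ERK, rose from 3.94 ± 0.41 to 20.03 ± 0.59 CPM (2.35), and TNFAIP2, a TNF-inducible gene, from 101 ± 3.8 to 211 ± 24 CPM (1.06).

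SPATA2, which encodes an adaptor of the deubiquitinase CYLD, passed with a log2 fold change of 0.29 (adjusted p = 0.018). It did not pass without untreated replicates 2 and 3 or TNF replicate 2 (adjusted p = 0.20, 0.064 and 0.16). The receptor gene TNFRSF1A stood at 88.5 CPM untreated and 91.6 CPM with TNF on average and did not pass (0.05, adjusted p = 0.65). The rises in this list thus lay in 5 genes, 3 of them above 4-fold, while 34 members did not pass.

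Cytokines, their receptors and adhesion molecules rose for 12 of 22 members (54.5%, median 0.37), against 1.1% of all genes. ICAM1, an adhesion molecule for leukocytes, stood at 21.6, 21.5 and 22.0 CPM untreated and at 61.0, 72.2 and 50.9 CPM with TNF. Its TNF libraries differed among themselves by over 20 CPM but all lay above the untreated ones (1.5, SE 0.085, adjusted p = 5.4e-11). SDC4, a cell-surface proteoglycan gene, rose from 141 ± 2.1 to 317 ± 28 CPM (1.17), CSF1, the macrophage growth factor gene, from 4.27 ± 0.21 to 10.2 ± 1.1 CPM (1.26), and LIF, an IL-6 family cytokine gene, from 50.1 ± 1.1 to 77.4 ± 7.6 CPM (0.63).

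Several members of this list were barely detected in untreated cells, and the filter could admit them through libraries with TNF. Of 27 listed genes 22 were tested, so the share and the median of this list also lean towards genes that rose. The TNF transcript itself had 2 counts over the untreated libraries and 100 over the treated ones, a ratio of 57.0 (95% counting interval 15.4 to 477). SELE, the E-selectin gene, had 0 counts untreated and 8, 17 and 10 with TNF, which is at least 13.3-fold higher against a floor of 3 counts over the group. The cytokine genes LTB and CSF2 were below 0.1 CPM untreated and reached 0.256 ± 0.030 and 0.398 ± 0.079 CPM. Outside the list, IL17C, an epithelial cytokine gene, went from 3 to 111 counts (ratio 42.2, interval 14.1 to 208) and SERPINA3, an acute-phase protease inhibitor gene, from 2 to 58 (33.1, interval 8.75 to 279), both named after their values were seen. TNFSF18, a TNF family ligand gene, rose from 0.519 ± 0.13 to 1.79 ± 0.25 CPM (1.77). IL6, IL1B and VCAM1 had 4, 2 and 3 counts over all 6 libraries and were not tested.

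AP-1 and related factors rose for 11 of 17 members (64.7%, median 0.37), against 1.1% of all genes. JUN, the AP-1 subunit c-Jun, stood at 15.6, 14.7 and 15.3 CPM untreated and at 141, 160 and 125 CPM with TNF. The groups were more than 100 CPM apart (3.23, SE 0.075, adjusted p = 2.0e-20). JUNB, a related subunit, stood at 122, 112 and 115 CPM untreated and at 447, 492 and 421 CPM with TNF (1.96, SE 0.058, adjusted p = 4.9e-20). CEBPD, MAFF and ATF3, which encode basic leucine zipper factors of stress and acute-phase responses, rose by 1.95, 1.18 and 1.29. Among the FOS family, FOSB rose by 0.69, FOSL1 by 0.40 and FOSL2 by 0.37. FOS itself, named after its values were seen, stood at 12.1 CPM untreated and 11.6 CPM with TNF on average (-0.06, adjusted p = 0.76). CEBPB (0.36, adjusted p = 0.067) and ATF4 (0.13, adjusted p = 0.23) did not pass.

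Other immediate early genes, a class that many stimuli induce quickly, had 21 of 39 members higher and 1 lower (median 0.40). The share higher was 53.8%, against 1.1% of all genes. IER3, an early gene that modulates cell survival, stood at 280, 275 and 301 CPM untreated and at 882, 780 and 781 CPM with TNF (1.51, SE 0.053, adjusted p = 3.4e-18). Per kilobase of its longest transcript, IER3 gained 392 CPM, the most among the genes called higher, followed by JUNB (185 CPM per kb) and NFKBIA (158 CPM per kb). IRF1, an interferon regulatory factor, rose from 20.9 ± 1.3 to 130 ± 15 CPM (2.64), and NUAK2, an AMPK-related kinase gene, from 4.34 ± 0.23 to 30.0 ± 5.0 CPM (2.79). PPP1R15A, a phosphatase subunit of the stress response, BTG2, an antiproliferative gene, and RHOB, a small GTPase gene, rose by 1.17, 1.14 and 0.80. EGR1, a zinc finger factor present at 112 ± 3.6 CPM untreated, rose by 0.62, and IER2 and PIM3 by 0.61 and 0.74. MYC, already at 474 CPM on average, rose by 0.26 (adjusted p = 0.0030).

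Some negative regulators of MAP kinase signalling and of cytokine mRNA rose, and most members of both lists did not pass. Of 11 dual-specificity phosphatase genes, which encode enzymes that switch off MAP kinases, 4 rose (median 0.08): DUSP8 by 1.31, DUSP10 by 1.09, DUSP1 by 0.79 and DUSP5 by 0.64. Those 4 were 36.4% of the list, against 1.1% of all genes. Of 15 mRNA decay factors 4 rose (26.7%, median 0.09). ZFP36, which encodes the RNA-binding protein tristetraprolin that destabilises cytokine mRNA, stood at 26.2, 23.5 and 25.4 CPM untreated and at 87.4, 92.7 and 78.1 CPM with TNF (1.78, SE 0.057, adjusted p = 4.1e-19). ZC3H12A, which encodes the ribonuclease regnase-1, rose from 8.17 ± 0.68 to 27.7 ± 3.6 CPM (1.77), and the ZFP36 relatives ZFP36L1 and ZFP36L2 by 0.69 and 0.30. Among 12 Krüppel-like factors KLF10 (0.97) and KLF6 (0.65) rose (16.7%, median 0.12).

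**Figure D4:**
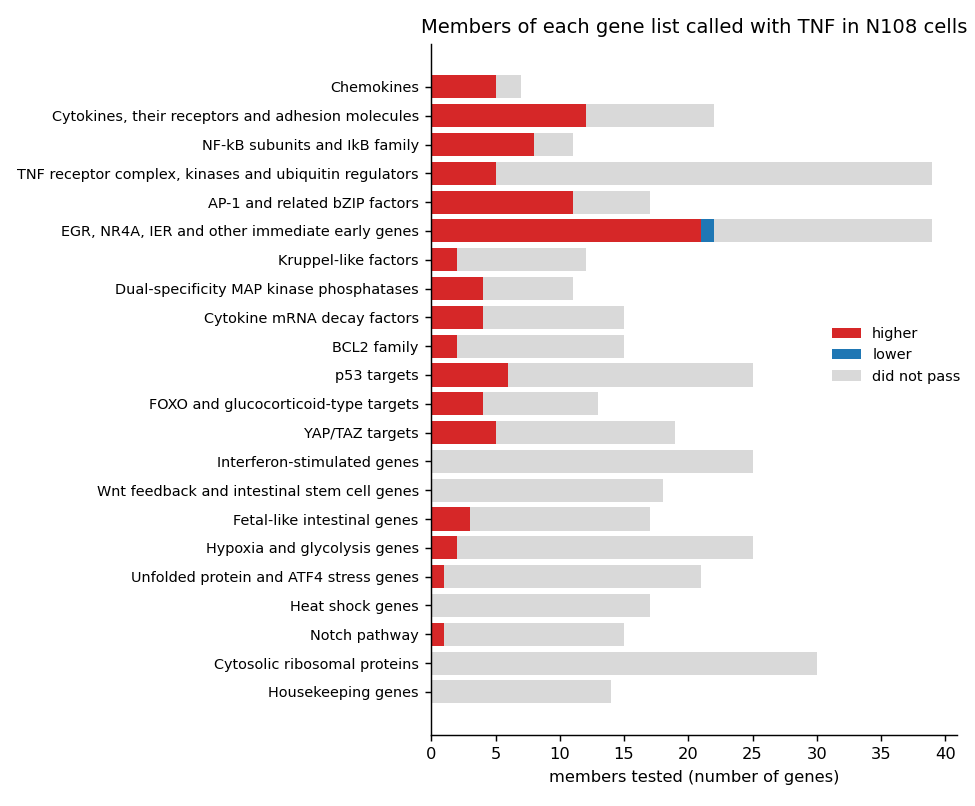
Number of tested members (x) of each of 22 gene lists (y) that were called higher (red), called lower (blue) or did not pass (grey) with TNF in N108 cells. Chemokine, NF-κB and IκB, and AP-1 lists are mostly red, with 5 of 7, 8 of 11 and 11 of 17 members higher, and the list of immediate early genes has the single blue member, ID2.

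Stress and growth lists changed in a few members each, with medians near that of all genes. Against 1.1% of all genes, 24.0% of p53 targets and 13.3% of the BCL2 family were called higher. The share was 26.3% for YAP/TAZ targets and 30.8% for FOXO and glucocorticoid-type targets. PLK2, PLK3, NUAK2 and CCN1, named below, are also in the list of immediate early genes. Targets of p53 rose for 6 of 25 (median 0.04). The largest rises were those of GDF15, a stress cytokine gene, from 81.9 ± 7.9 to 183 ± 22 CPM (1.16), and BTG2, also an early gene; PLK3, BBC3, the proapoptotic gene PUMA, CDKN1A, the cell cycle inhibitor p21, and PLK2 rose by 0.75, 0.62, 0.47 and 0.36. In the BCL2 family 2 of 15 rose, BBC3 and BIK (0.52), both proapoptotic. YAP/TAZ targets rose for 5 of 19 (median 0.05), NUAK2 far above AMOTL2 (0.34), FJX1 (0.34), CCN1 (0.47) and F3 (0.28). F3, the tissue factor gene, did not pass without untreated replicate 1 or TNF replicate 2 (adjusted p = 0.057 and 0.12) and stood at 0.05 without untreated replicate 2. FOXO and glucocorticoid-type targets rose for 4 of 13 (median 0.10), DEPP1 by 0.51, CITED2 by 0.37, PER1 by 0.30 and ERRFI1 by 0.28.

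Among lists of intestinal genes, 1 had no member called and another had 3. The list of Wnt feedback and intestinal stem cell genes had 0 of 18 members past edgeR's test (before adjustment, 5 were higher and 3 lower with p under 0.05). DESeq2 called 1 lower, limma voom 1 higher, and edgeR with the GC trends removed 1 lower. Its members CD44 and SOX9 had log2 fold changes of -0.05 and 0.15, and LGR5, ASCL2 and OLFM4 had 16, 1 and 0 counts over all 6 libraries. Fetal-like intestinal genes rose for 3 of 17 (17.6%, against 1.1% of all genes; median 0.11): AREG, PLAUR, the urokinase receptor gene (0.51), and TNFRSF12A, the receptor of TWEAK (0.37). Interferon-stimulated genes had 0 of 25 past edgeR's test (2 higher and 3 lower unadjusted), 0 by DESeq2 and 1 lower by voom. Heat shock genes had 0 of 17 (3 higher unadjusted), 2 higher by DESeq2, 0 by voom and 1 higher with the GC trends removed. Ribosomal protein genes had 0 of 30 (1 higher unadjusted) and 0 by either tool. Housekeeping genes had 0 of 14 (2 lower unadjusted) and 0 by either tool.

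Counts of the smaller lists rested on single libraries. Notch genes, with NRARP alone called (0.27, adjusted p = 0.049), had 5 higher without TNF replicate 3, 1 without untreated replicate 1 and 0 without any other. Hypoxia genes, with DDIT4 (0.32) and VEGFA (0.25) called, had 0 higher without untreated replicate 2 or 3 or TNF replicate 2 and 1 without untreated replicate 1, and 1 was lower without TNF replicate 2. NRARP, a Notch feedback gene, had adjusted p-values of 0.16, 0.25, 0.092, 0.093 and 0.28 without untreated replicates 1, 2 and 3 and TNF replicates 1 and 2. DDIT4, a stress-induced inhibitor of mTOR signalling, had 0.089, 0.090 and 0.14 without untreated replicates 2 and 3 and TNF replicate 2. VEGFA, the angiogenic growth factor gene, had 0.12, 0.084, 0.059 and 0.33 without untreated replicates 1, 2 and 3 and TNF replicate 2. Without TNF replicate 3, 4 unfolded protein response genes (1 with all libraries), 2 heat shock genes and 4 ribosomal protein genes were higher, 1 interferon-stimulated gene was higher and 2 were lower, 1 stem cell gene was higher and 1 housekeeping gene was lower. Without TNF replicate 1 or untreated replicate 1, 1 heat shock gene was higher, and 1 stem cell gene was lower without TNF replicate 1. NRARP's call also ended with the GC trends removed (0.13, adjusted p = 0.60).

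The genes that fell were few and moved by small amounts. RGS2, a regulator of G protein signalling, stood at 30.1, 32.2 and 30.4 CPM untreated and at 23.0, 21.2 and 24.3 CPM with TNF (-0.44, SE 0.059, adjusted p = 1.5e-05). ID2, an inhibitor of basic helix-loop-helix factors, stood at 78.0, 84.6 and 79.3 CPM untreated and at 60.1, 64.8 and 62.3 CPM with TNF (-0.37, SE 0.056, adjusted p = 8.7e-05). Every TNF library of both genes lay below every untreated one, where 6.86% of all genes tested showed that order, and they were the 2 of the 19 called lower in all 6 fits that left out 1 N108 library. Of the 19, only RGS2 and ID2 were also called lower in WT (-0.31 and -0.27), where 600 genes (3.15%) were called lower. In M3, where 53 genes (0.278%) were called lower, they were called with 5 others of the 19, GAS1 among them.

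KRT222, a keratin-related gene, fell by 0.73 on the log2 scale (2.01 ± 0.18 CPM untreated, 1.21 ± 0.065 CPM with TNF, adjusted p = 0.040). GAS1, a growth arrest gene, fell by 0.58 (1.87 ± 0.085 and 1.24 ± 0.26 CPM, adjusted p = 0.040). KRT222 did not pass without untreated replicates 1 and 2 and TNF replicates 1 and 2 (adjusted p = 0.12, 0.23, 0.12 and 0.18). GAS1 did not pass without any untreated replicate or TNF replicate 2 (0.075, 0.14, 0.12 and 0.37). RBM43, an RNA-binding protein gene, fell by 0.49 on the log2 scale, from 10.9 ± 1.1 to 7.80 ± 1.2 CPM, and did not pass without untreated replicate 2 (0.087) or TNF replicate 2 (0.059). ST6GALNAC5 (-0.44), NIPBL-DT (-0.42), FAM217B (-0.33) and XRCC4 (-0.27) had adjusted p-values of 0.37, 0.18, 0.21 and 0.31 without TNF replicate 2 and 0.20, 0.077, 0.13 and 0.37 without untreated replicate 2. Leaving out untreated replicate 1 also ended the first 3 (0.11, 0.11 and 0.10), untreated replicate 3 ended ST6GALNAC5 (0.099), NIPBL-DT (0.064) and XRCC4 (0.052), and TNF replicate 1 ended FAM217B (0.099). With the GC trends removed 11 of the 19 were still called. KRT222 (-0.57, adjusted p = 0.089), ST6GALNAC5 (-0.39, 0.086), NIPBL-DT (-0.33, 0.093) and XRCC4 (-0.14, 0.37) were not.

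The genes called for TNF were compact by median, a feature that the choice of members did not use. Among protein-coding genes the median span was 11.0 kb for the 195 called higher, 10.7 kb for the 44 raised at least 2-fold and 32.7 kb for all 13907 tested. The 18 called lower had a median span of 12.2 kb and 4.5 exons, with 16.7% single-exon, but 3 of them (16.7%) were over 100 kb. Genes over 100 kb made up 19.4% of those tested, and 2 of the 195 (1.03%), SERTAD2 (119 kb) and BANP (128 kb), both named for their span. BANP's call ended with the GC trends removed and without untreated replicates 2 and 3 or TNF replicates 1 and 2 (adjusted p = 0.055, 0.27, 0.079, 0.082 and 0.22), and SERTAD2 (0.32, adjusted p = 5.8e-05) was called in each of these fits. The median number of exons of the genes called higher was 4 against 8, and 9.23% were single-exon genes, JUN and IER3 among them, against 3.55%. Longest transcripts also differed in GC content, with a median of 57.1% for the called against 49.3% for all, and its part in the difference in span was not tested.

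Removal of the GC trends ended mostly small rises. Of the 209 genes, 168 were still called, with a median GC content of 55.4% and a median log2 fold change of 0.60. The 41 that were not had a median GC content of 61.6% and a median of 0.26. CITED4, KDM6B and MAFK, which encode a transcriptional coactivator, a histone demethylase and a small MAF factor, had the smallest p among these. They went from 0.46, 0.32 and 0.26 to 0.26, 0.21 and 0.14 (adjusted p = 0.086, 0.051 and 0.085). CITED4 and KDM6B did not pass without TNF replicate 2 either (0.061 and 0.052), nor MAFK without untreated replicate 2 (0.089). Another 25 genes were higher and 13 lower only with the trends removed, led by EREG, PMAIP1, the proapoptotic gene NOXA (0.39), and ARRDC3 (0.42) on one side and ZNF503 (-0.31), ADM (-0.35) and SOCS3 (-0.24) on the other.

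Whether the response of N108 cells differed from that of the other knock-ins was tested as an interaction. Against WT, 387 genes had a higher (2.03%) and 111 a lower (0.583%) fold change in N108, 475 of the 498 not being called for TNF in N108. Their GC content differed, with medians of 61.0% and 40.5%. With the GC trends removed the counts were 96 (0.504%) and 41 (0.215%), and 106 of the 498 were still called. The counts were 1196 (6.16%) and 1234 (6.36%) without N108 TNF replicate 3. In both directions together they were 183 to 318 without N108 untreated replicate 1 or 2, N108 TNF replicate 1 or 2, WT untreated replicate 2 or 3, or WT TNF replicate 2 or 3. Among the 209 genes raised in N108, 14 had a higher fold change than in WT and 7 a lower one, and with the trends removed 3 and 6 of these passed.

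TNFAIP3 and NFKBIZ had higher fold changes in N108 than in WT. TNFAIP3 went from 24.8 ± 0.19 to 255 ± 10 CPM in WT (3.36), so its level stayed below that of WT in both conditions and the interaction was 0.68 (SE 0.085, adjusted p = 0.00026). NFKBIZ went from 6.58 ± 0.24 to 53.8 ± 2.8 CPM in WT, against 3.93 to 54.5 CPM in N108, and the interaction was 0.76 (SE 0.10, adjusted p = 0.00054). Both held with the GC trends removed (0.68 and 0.81). For both genes the untreated mean of N108 was below that of WT. CXCL8 (0.67) and CXCL1 (0.87) passed with all libraries. With the trends removed their interactions were as large or larger, at 0.95 and 0.94, but did not pass (adjusted p = 0.095 and 0.24). CXCL8 had adjusted p-values of 0.056 and 0.053 without N108 untreated replicates 1 and 2. CXCL1 lay between 0.056 and 0.16 without any 1 of the N108 untreated libraries, any 1 of the WT untreated libraries or WT TNF replicates 2 and 3.

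Rises were smaller in N108 for EGR3, an early zinc finger factor, which went from 4.32 ± 0.23 to 6.97 ± 0.62 CPM against 1.95 ± 0.22 to 5.26 ± 0.12 CPM in WT (interaction -0.76, adjusted p = 0.0040). TIFA, an adaptor of NF-κB signalling, went from 34.6 ± 1.4 to 46.2 ± 3.2 CPM against 28.9 ± 1.6 to 59.5 ± 3.8 CPM in WT (-0.62, adjusted p = 0.0013). DEPP1, induced by FOXO factors, moved from 7.54 ± 0.24 to 10.7 ± 1.1 CPM against 15.0 ± 0.18 to 31.4 ± 1.3 CPM (-0.56, adjusted p = 0.0033). CD83, an immune surface molecule (-0.43), and KLF10 (-0.35) passed too, and all 5 also passed with the trends removed. KLF10 did not pass with the trends removed and N108 TNF replicate 3 left out (-0.30, adjusted p = 0.061). BIRC3 reached 63.0 ± 5.0 CPM in WT and 34.0 ± 0.93 CPM in N108 (-0.67, adjusted p = 0.0033), but not with the trends removed (-0.42, adjusted p = 0.13). ADRB1, an adrenergic receptor gene not called in N108 (0.20), rose in WT from 2.12 ± 0.16 to 4.01 ± 0.24 CPM (interaction -0.72, adjusted p = 0.015).

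Against M3 the differences were fewer and in 1 direction: 14 genes rose less in N108 (0.0735%) and ID1 alone had a higher fold change (0.00525%). Of these 15 genes 13 also passed with the GC trends removed. NUAK2 reached 30.0 ± 5.0 CPM in N108 and 49.6 ± 2.6 CPM in M3 from 4.34 and 3.92 CPM (interaction -0.87, SE 0.14, adjusted p = 0.0062). TNFAIP3 rose less than in M3 (-0.76, adjusted p = 0.00012), where it went from 7.58 ± 0.56 to 211 ± 6.7 CPM. ATF3 (-0.58), MAFF (-0.56) and NFKBIA (-0.44) followed. ID1, an inhibitor of basic helix-loop-helix factors, did not pass for TNF in N108 (406 CPM untreated and 389 CPM with TNF) and went from 394 ± 22 to 274 ± 12 CPM in M3 (0.46, adjusted p = 0.0062). These 6 interactions passed in every fit that left out 1 library. CXCL8 reached 203 ± 13 CPM in M3 (-0.96), and its call ended with the trends removed (-0.76, adjusted p = 0.81) and without N108 untreated replicate 2 or 3 or any M3 untreated library (0.062 to 0.11). Without N108 TNF replicate 3 the counts were 508 higher (2.62%) and 142 lower (0.732%). They were 7 to 9 in all without any 1 of the N108 untreated libraries, M3 untreated replicate 1 or 2, or M3 TNF replicate 2.

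**Figure D5:**
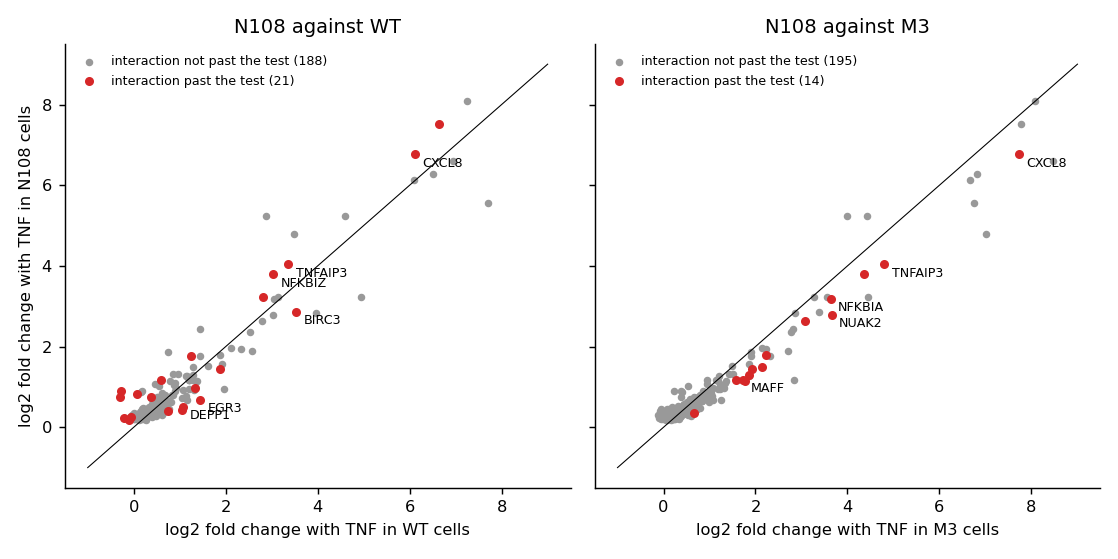
Log2 fold change with TNF in N108 (y) against that in WT (left, x) and in M3 (right, x) for the 209 genes called higher in N108; red points passed the test of the interaction, grey points did not, and the line marks equal fold changes. Of the 209, 21 passed against WT, on both sides of the line, and 14 against M3, all below it.

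Of the 209 genes, 149 were also called higher in WT (71.3%), 144 in M3 (68.9%) and 132 in both (63.2%). Over all genes tested, 387 were called higher in WT (2.03%) and 209 in M3 (1.1%). The 48 called in neither had a median log2 fold change of 0.28 and a median GC content of 60.7%, and 31 of them had positive values in both other lines. With the GC trends removed 18 of the 48 were still called in N108. An interaction with WT was passed by 4 of them, VEGFA among them, and by 0 with the trends removed. In the other direction 238 genes called higher in WT were not called in N108, of which 37 passed the interaction and 9 of those, ADRB1, NFE2L3 and SAV1 among them, also did with the trends removed. Of 65 genes called higher in M3 and not in N108, 62 had positive values in N108. No share of all genes with such signs is given here, nor for the 31 above.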

How the data were processed

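Per the labels, total RNA of 18 libraries was read as paired ends of 50 bp. The authors deposited raw read counts per gene, which were used here; per the submitters' processing notes reads were handled with Trim Galore (0.6.6), STAR (2.7.8), Subread (2.0.1) with featureCounts, and DESeq2 (1.38.3) in an order that is not stated. Their normalized table was not used. Annotation release and strand setting: not given in the sources used here, so overlapping and antisense genes are uncertain. Counts were matched to samples by column name. Symbols matched 99.8% of genes, and spans and GC content came from GENCODE 29 (GRCh38), which held 97.4% of the genes tested.

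The low-count filter was filterByExpr with 10 as its minimum count. Genes that passed it held 99.97% of counts and were tested with edgeR 4.0.16 (R 4.3.3): TMM scaling, 1 robust quasi-likelihood model with a mean for each of 6 groups (12 residual degrees of freedom), two-sided p-values adjusted by Benjamini-Hochberg over all 19038 genes, threshold 0.05. Standard errors were obtained by dividing the size of the log2 fold change by the root of the F statistic. CPM used TMM-scaled totals, and means are given ± SD over 3 libraries. Precision follows from library totals between 49021907 and 76947190 counts. Floors (3 counts) and intervals hold counting error only, because no molecular identifiers tell copies of 1 molecule apart. GC trends were removed with offsets from a lowess fit (span 0.3) per library. Alternatives were DESeq2 1.42.0, limma 3.58.1 voom with sample weights, RLE scaling, other filters, only the groups compared, a replicate block and leaving out each library.

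On simulated counts (18637 genes), 99 of 100 genes changed by 1 on the log2 scale and 87 of 100 changed by 0.5 were recovered for TNF in N108, with 3.63% of calls false, and 99 and 80 for the interaction with WT (7.73% false). These simulated libraries had no GC trends, and the changed genes were drawn only from those above 1 CPM on average. Recovery of genes below that level was not tested. Members, gene lists (22 lists, 411 genes tested) and the settings were chosen with earlier results of these data known; the GC removal without N108 TNF replicate 3, and the list counts without single libraries, were added after seeing the files. Genes named were the 20 highest and 10 lowest called with at least 1 CPM and groups that did not overlap, in each list up to 8 called members of smallest p and up to 3 not called of highest CPM, the NF-κB subunits, the 6 highest and 6 lowest of each interaction and the 3 of smallest p that GC removal ended or added; from these the text takes those described. SERTAD2, BANP, TUBB2A, IL17C, SERPINA3, FOS, MYC, IER2, PIM3, TIFA, CD83, NFE2L3, SAV1 and the neighbours of NFKBIA were chosen after their values were seen. Some genes that the rule names are not reported here.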

Additional observations from a re-analysis of the deposited data

Results flagged for a closer look

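The TNF response differed between N108 and WT by a test of the difference itself for 498 genes, and between N108 and M3 for 15. Against WT, the values were 0.68 for TNFAIP3, 0.76 for NFKBIZ, -0.76 for EGR3, -0.62 for TIFA, -0.56 for DEPP1, -0.43 for CD83, -0.35 for KLF10, -0.72 for ADRB1 and -0.67 for BIRC3 on the log2 scale, and these passed without any 1 library. CXCL8 (0.67) and CXCL1 (0.87) did not pass in the fits named with them above, although their values with the GC trends removed were 0.95 and 0.94.

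Genes of low level with large interactions against WT were ADAM8 (1.23), LINC02990 (1.27), SYT8 (1.20), CAPN3 (1.14), SKIDA1 (-0.78) and ODAM (-0.72). ADAM8, a metalloproteinase gene, stood at 1.64 and 2.12 CPM in N108 and at 2.05 and 1.12 CPM in WT, untreated and with TNF. None of these 6 was called for TNF in N108. ADAM8 passed in every alternative, and LINC02990 in all but the GC removal without N108 TNF replicate 3 (adjusted p = 0.052). With GC trends removed SYT8 (0.97, adjusted p = 0.070), CAPN3 (1.1, 0.056), SKIDA1 (-0.76, 0.070) and ODAM (-0.56, 0.17) did not pass. CAPN3 had adjusted p-values of 0.050 to 0.10 without N108 untreated replicate 1, N108 TNF replicates 1 and 2, WT untreated replicates 2 and 3 and WT TNF replicate 3. SKIDA1 lay between 0.05 and 0.18 without N108 untreated replicates 2 and 3, N108 TNF replicates 1 and 2, WT untreated replicates 2 and 3 and WT TNF replicates 1 and 3. ODAM lay between 0.051 and 0.15 without N108 untreated replicates 1 and 2, N108 TNF replicates 1 and 2, any WT untreated library and WT TNF replicates 2 and 3.

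Against M3, the values were -0.87 for NUAK2, -0.76 for TNFAIP3, -0.58 for ATF3, -0.56 for MAFF, -0.44 for NFKBIA, 0.46 for ID1 and -0.96 for CXCL8. ICAM1 (-0.65) and PDGFB (-0.62) had adjusted p-values of 0.057 to 0.17 without any 1 of the untreated libraries of both lines, N108 TNF replicate 1 and M3 TNF replicates 2 and 3. ZFP36 (-0.44) lay between 0.057 and 0.095 without N108 untreated replicates 1 and 3, M3 untreated replicate 2 and M3 TNF replicate 2.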

How the results depend on the processing

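The count of genes higher in N108 (209) was 364 by voom, 367 with no filter and 134 with only the groups compared, and 140 to 906 without 1 library. The count lower (19) was 43 by DESeq2, 164 by voom, 285 with no filter, 4 with only the groups compared and 3 to 427 without 1 library. Against WT the 498 interactions became 856 by DESeq2, 2094 by voom, 1362 with no filter, 137 with GC trends removed, 212 with GC trends removed without N108 TNF replicate 3, and 183 to 2430 without 1 library. Against M3 the 15 became 29 by DESeq2, 163 with no filter, 7 with only the groups compared and 7 to 650 without 1 library. TNFRSF1A, not called, was -0.023 with GC trends removed and -0.043 without N108 TNF replicate 3 as well. The cause of these changes was not tested, except that fewer libraries or groups enter some fits.

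Same-numbered N108 libraries did not deviate together (r of -0.296, -0.468 and -0.46 over 10429 genes). These deviations include the GC trend of each library, so they cannot show whether same-numbered libraries shared a culture or day. The labels do not say so either, and the numbers are not taken to pair the libraries. With the replicate block 160 genes were higher and 8 lower, 235 interactions passed against WT and 8 against M3, and with the block and GC trends removed 182 passed against WT. No call of the 50 genes raised at least 2-fold ended with the block.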
